A study of Mus musculus with 6 samples.

Results

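The genes described here are 30 genes of reactive gliosis and the acute-phase response, taken by name from a table of 54532 genes measured by RNA sequencing in mouse retina. The list runs from the glial filament genes Gfap, Vim and Nes through secreted acute-phase proteins such as Lcn2 and Serpina3n to the STAT3 signalling genes and metallothioneins, and all 30 symbols were found once each. Antagomir libraries (3) came from retinas given 1 nmol of miR-381-3p antagomir, a chemically modified strand that blocks the microRNA, in the vitreous. Control libraries (3) came from retinas given 1 nmol of a negative control antagomir by the same route. All 6 came from the oxygen-induced retinopathy model: pups and their mothers went into 75% ± 2% oxygen on postnatal day 7, the injection followed on day 12 and the retinas were taken on day 17. No uninjected retina and no retina kept in room air is among the samples, so the level of these genes without the injection and without the oxygen exposure was not measured. The labels do not give the strain, the sex or the number of animals behind a library, and where libraries share an animal the p-values measure technical spread. Per library, 13727596 to 16502352 reads fell in genes. Levels are in FPKM, fragments scaled to gene length and to library size by the authors, and are given for replicates 1, 2 and 3 in that order. The heading of the antagomir columns is not spelled out in the labels. These columns were taken as antagomir because only that group remains, and every direction rests on it.

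Glial cells of the retina, chiefly Müller glia and the astrocytes of the nerve fibre layer, respond to injury, raised pressure, ischaemia or inflammation with a shared programme called reactive gliosis. Cytokines of the interleukin-6 family bind receptors built around gp130, the kinases of the JAK family phosphorylate STAT3, and STAT3 drives transcription of Gfap, of acute-phase genes and of its own inhibitor Socs3. In the retina the best known trigger is leukaemia inhibitory factor, Lif, which stressed retina makes and which raises Edn2 and Fgf2 as part of a response that protects photoreceptors. Acute-phase genes are those that the liver secretes on inflammation, and several are made by glia as well.

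The molecule that the antagomir was built to block is printed first, since any direct effect would pass through its seed. Mature miR-381-3p lies on the plus strand at chr12:109726870-109726891 (RefSeq, GRCm38.p6), is 22 bases long, and is shown with seed bases 2 to 8 in capitals.
miR-381-3p: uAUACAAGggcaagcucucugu
The complement of that seed, CTTGTAT, was looked for in 3′ UTRs, taking for every gene its longest one in GENCODE release M21. It occurred in 0 of the 27 members that were tested, against 13.0% of the 13178 tested genes with an annotated 3′ UTR. The members' 3′ UTRs were shorter, with a median of 723 bases against 1201 bases. The absence says only that these letters are not in those stretches.

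No member differed between the groups at an adjusted p of 0.05. Of the 30 genes, 27 had a mean of at least 0.5 FPKM and were tested with limma, and Lif, Aspg and Mt2 were below it. Among these 27 members 0 were called, as were 0.0% of the 17453 genes tested. At an unadjusted p under 0.05 by limma, 4 members stood out, namely Gbp2, S1pr3 and S100a6 with higher and Ednrb with lower values in antagomir retinas, where 6.2% of all genes tested did so (3.22% higher and 2.98% lower). The groups did not overlap for 4 tested members, S1pr3, S100a6 and Saa3 above and Ednrb below, where 12% of all genes tested did not overlap (6.16% above and 5.87% below). The log2 fold change was above 0 for 20 tested members and for 50.5% of all genes tested. Its median was 0.33 over the tested members, with a range of -0.73 to 2.02, and 0.0013 over all genes tested. Saa3 and Steap4 passed the expression filter only through the antagomir libraries, so the counts over tested members are a description. Without antagomir replicate 2, 25 members were tested, 8 were above 0 and the median was -0.13.

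**Figure D1:**
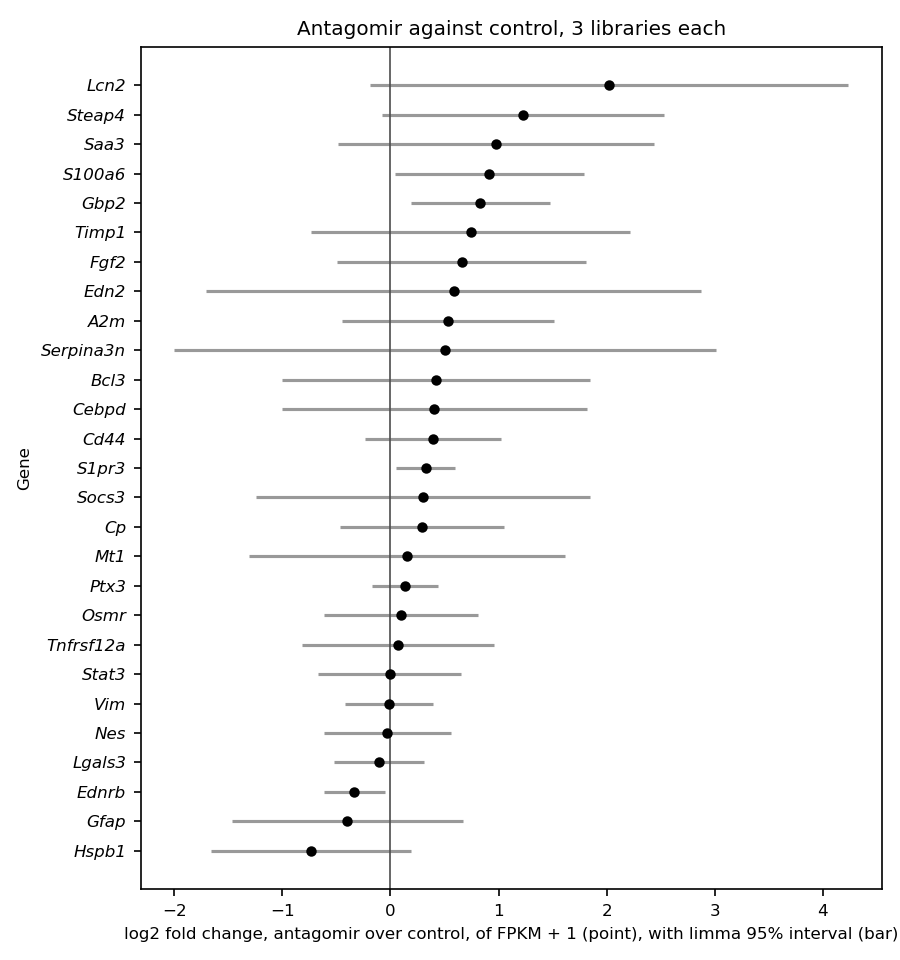
Log2 fold change of FPKM + 1, antagomir over control, for the 27 tested members (x axis), with 1 gene per row. Points are limma estimates from 3 libraries per group and bars are their 95% intervals. Lcn2 has the highest point at 2.02 and Hspb1 the lowest at -0.73, and most bars cross 0.

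The members' levels spread widely inside both groups, and most were highest in 1 library. Of the 27 tested members, 19 had their highest level in antagomir replicate 2, as did 17.7% of all genes tested, and over all 30 genes the count was 21. In 9 tested members that library was at least 2 times the next highest library, which held for 0.47% of all genes tested. Control replicate 1 was the highest control library in 23 tested members, against 34.6% of all genes tested. For 13 tested members the first and second places were antagomir replicate 2 and control replicate 1, against 3.82% of all genes tested. Control replicate 2 was the lowest of all libraries for 11 tested members, and control replicate 1 for 0. With antagomir replicate 2 set aside, control replicate 1 was the highest of the other 5 libraries in 17 members, against 20.3% of all genes tested. The range over the 3 antagomir libraries had a median of 1.41 log2 units over the tested members and 0.22 over all genes tested. Over the 3 control libraries those medians were 0.78 and 0.21.

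**Figure D2:**
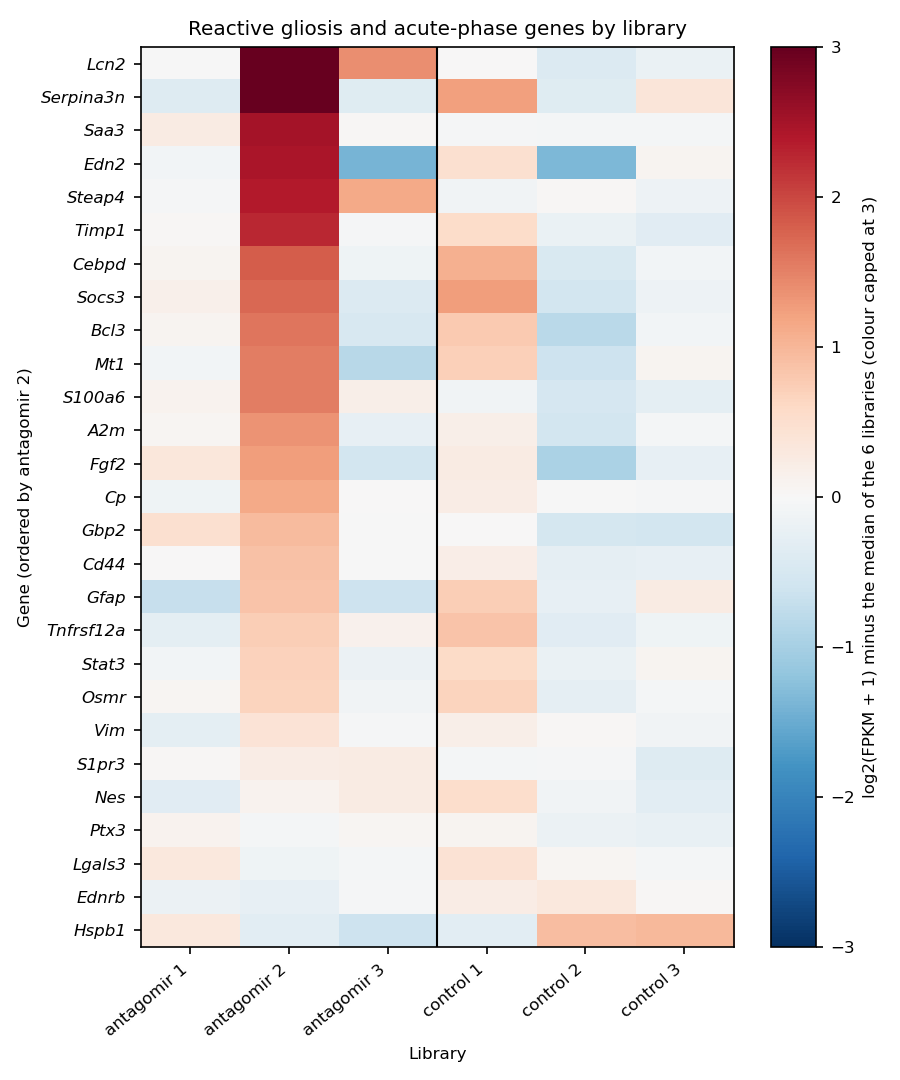
Log2(FPKM + 1) of each tested member (rows, 27 genes) in each library (columns, antagomir left of the line and control right of it), minus the gene's median over the 6 libraries and capped at 3. Red is above and blue below that median. The antagomir 2 column is red in nearly every row and the control 1 column is the reddest of the controls, while Hspb1 at the bottom is red in control 2 and control 3.

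**Figure D3:**
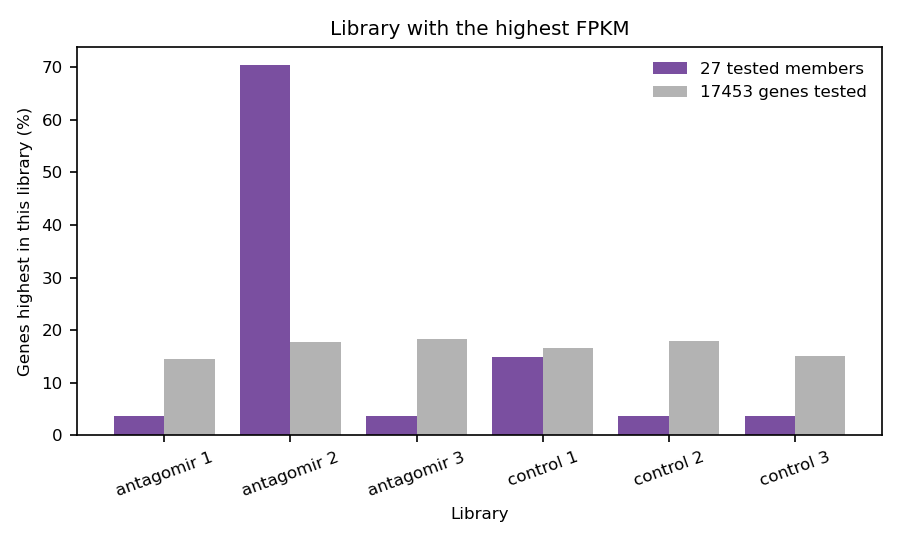
Share of genes (y axis, percent) whose highest FPKM lay in each library (x axis), for the 27 tested members and for the 17453 genes tested. Antagomir 2 held the highest value of 70.4% of the members and 17.7% of all genes.

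Glial filament genes showed the pattern with Gfap in front. Gfap encodes the intermediate filament that Müller glia make little of at rest and much of under stress (ENSMUSG00000020932, chromosome 11, 102887336 to 102900912, minus strand, GRCm38). It was at 12.4, 38.3 and 13.0 FPKM in antagomir retinas and at 35.1, 17.2 and 24.7 FPKM in control retinas. Antagomir replicates 1 and 3 were below every control, replicate 2 was above every control, and the groups overlapped. The log2 fold change was -0.40 (SE 0.45, 95% interval -1.47 to 0.67, adjusted p = 0.909 by limma). Leaving out 1 library gave values from -0.91, without antagomir replicate 2, to -0.13, without antagomir replicate 1. Vim, the vimentin gene and the filament that Müller glia hold at all times, was at 30.4, 50.1 and 36.7 FPKM in antagomir retinas and at 42.4, 38.7 and 35.1 FPKM in control retinas. Its libraries were again highest in antagomir replicate 2 and then control replicate 1, over a narrower range (log2 fold change -0.013, SE 0.17). Nes encodes nestin, the filament of progenitors and of some reactive glia, and had 1.51, 2.40 and 2.78 FPKM in antagomir retinas and 3.54, 1.96 and 1.56 FPKM in control retinas. For Nes the highest library was control replicate 1.

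The Gfap promoter is shown because STAT3 is known to act on this gene. In the tables of RefSeq, 28 of the 30 members had a sequence from 250 bases before to 50 bases after the start site. The letters TTCNNNGAA, the core that STAT factors bind, occurred on either strand in 3 of the 28 members (Gfap, Socs3 and Steap4), against 8.07% of the 11137 tested genes with a promoter in those tables. None of the 3 matches overlapped a match to the other motifs searched. The Gfap stretch (chr11:102897151-102897450, minus strand, GRCm38.p6) has its match in capitals, beginning 2 bases before the start site.
Gfap: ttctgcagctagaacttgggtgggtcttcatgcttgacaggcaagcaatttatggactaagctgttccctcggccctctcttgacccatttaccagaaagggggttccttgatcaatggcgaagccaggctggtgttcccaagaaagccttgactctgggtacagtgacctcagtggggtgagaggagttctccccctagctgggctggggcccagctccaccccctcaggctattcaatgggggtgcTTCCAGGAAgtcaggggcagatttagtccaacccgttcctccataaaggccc

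Most genes of secreted acute-phase proteins were highest in antagomir replicate 2. Lcn2 encodes lipocalin 2, which binds bacterial iron carriers and is a marker of reactive astrocytes (ENSMUSG00000026822, chromosome 2, 32384633 to 32388252, minus strand, GRCm38). It was at 4.01, 85.4 and 12.2 FPKM in antagomir retinas and at 4.10, 2.81 and 3.39 FPKM in control retinas. Antagomir replicates 2 and 3 were above every control, and replicate 1 lay among the controls (log2 fold change 2.02, SE 0.93, adjusted p = 0.802 by limma). Without antagomir replicate 2 the log2 fold change of Lcn2 was 0.89. Serpina3n, a serine protease inhibitor of the antichymotrypsin family (ENSMUSG00000021091, chromosome 12, 104406729 to 104414329, plus strand), was at 3.93, 72.8 and 4.05 FPKM in antagomir retinas and at 14.2, 4.08 and 7.29 FPKM in control retinas. Apart from antagomir replicate 2, the antagomir libraries were lower than each control library, but antagomir replicate 3 and control replicate 2 were nearly level, at 4.05 and 4.08 FPKM. The log2 fold change was 0.51 (SE 1.05) with all libraries and -0.79 without antagomir replicate 2, and the adjusted p by limma with all libraries was 0.953.

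Saa3, a serum amyloid A gene that is made outside the liver in inflamed mouse tissue, had 9, 207 and 3 reads in antagomir retinas and 1, 0 and 0 reads in control retinas. Almost all of its 219 antagomir reads were therefore in 1 library. Although the groups did not overlap, antagomir replicate 3 and control replicate 1 were 2 reads apart. Steap4, a metalloreductase gene induced by cytokines, had 6, 259 and 80 reads in antagomir retinas and 4, 9 and 2 reads in control retinas. Antagomir replicates 2 and 3, at 5.04 and 1.54 FPKM, were above every control, and replicate 1 lay among them (log2 fold change 1.23, SE 0.55, adjusted p = 0.802 by limma). For Lcn2 and Steap4 antagomir replicate 3 came second, whereas for Serpina3n control replicate 1 came second.

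A2m encodes the broad protease trap alpha-2-macroglobulin, and had 4.92, 13.4 and 3.74 FPKM in antagomir retinas and 5.37, 2.86 and 4.42 FPKM in control retinas. Timp1, the gene of an inhibitor of matrix metalloproteinases, had 2.09, 13.4 and 1.91 FPKM in antagomir retinas and 3.41, 1.63 and 1.38 FPKM in control retinas. Cp encodes ceruloplasmin, the copper enzyme that oxidises iron for export, and had 16.4, 40.7 and 17.9 FPKM in antagomir retinas and 20.9, 17.8 and 17.3 FPKM in control retinas. In all of these, antagomir replicate 2 was the highest library and control replicate 1 the second. Their log2 fold changes were 0.53 (SE 0.41) for A2m, 0.74 (SE 0.62) for Timp1 and 0.29 (SE 0.32) for Cp. Without antagomir replicate 2 they were 0.052 for A2m, -0.011 for Timp1 and -0.11 for Cp. Ptx3, a long pentraxin that recognises microbes, did not share the order. It had 1.26, 1.03 and 1.20 FPKM in antagomir retinas and 1.25, 0.859 and 0.809 FPKM in control retinas, and antagomir replicate 2 was the lowest of its antagomir libraries.

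Promoter stretches of this group are shown with the letters TTGCNNAA, a core of the sites of C/EBP factors, in capitals. Each stretch is written in the direction of its gene, so the capitals of Lcn2 match these letters and those of Saa3, Cp and Ptx3 match their reverse complement. They occurred on either strand in 6 of the 28 members (Lcn2, Cp, Steap4, Ptx3, Mt2 and Saa3), against 9.74% of the tested genes with a promoter. The Lcn2 stretch is at chr2:32387938-32387965 on the minus strand and its match begins 216 bases before the start site. The Saa3 stretch is at chr7:46715758-46715785 on the minus strand, 99 bases before it. The Cp stretch is at chr3:19957169-19957196 on the plus strand, 70 bases before it, and the Ptx3 stretch is at chr3:66219820-66219847 on the plus strand, 57 bases before it.
Lcn2: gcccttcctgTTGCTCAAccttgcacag
Saa3: gtaagtgggaTTATGCAAgatcaaacag
Cp: ttagttactcTTTTGCAAcattaaattg
Ptx3: tggtttaacaTTGTGCAAcctcttcagc
The match thus stood in genes that were highest in antagomir replicate 2 and in Ptx3, which was not. The STAT core of Steap4 lies 116 bases before the start site of that gene, in the promoter at chr5:7960222-7960521 (plus strand). That promoter also holds a C/EBP core and a match to the NF-kB site GGGNNTTCC, which are not in capitals.
Steap4: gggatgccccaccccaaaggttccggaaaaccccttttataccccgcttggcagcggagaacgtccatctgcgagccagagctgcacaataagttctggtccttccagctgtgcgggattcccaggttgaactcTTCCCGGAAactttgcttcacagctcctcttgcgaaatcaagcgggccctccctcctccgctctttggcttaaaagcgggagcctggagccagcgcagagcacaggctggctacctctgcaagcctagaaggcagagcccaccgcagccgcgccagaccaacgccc

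In the STAT3 pathway the inhibitor gene Socs3 and the factor genes Cebpd and Bcl3 had 1 order of libraries, while the ligand Lif was highest in a control library. Lif, the ligand, was at the edge of detection, with 18, 22 and 23 reads in antagomir retinas and 35, 17 and 9 reads in control retinas. Its highest library was control replicate 1, and antagomir replicate 2 did not stand apart. Osmr, the receptor subunit for oncostatin M, had 1.33, 2.57 and 1.09 FPKM in antagomir retinas and 2.57, 0.847 and 1.15 FPKM in control retinas. The same libraries, antagomir replicate 2 and control replicate 1, were the highest of each group. Stat3, the transcription factor (ENSMUSG00000004040, chromosome 11, 100885098 to 100939540, minus strand), had 11.1, 19.7 and 10.3 FPKM in antagomir retinas and 18.1, 10.1 and 12.5 FPKM in control retinas. Its group means were all but equal, at 13.7 ± 5.19 and 13.6 ± 4.11 FPKM (SD, n = 3 each), with a log2 fold change of -0.0064 (SE 0.28, 95% interval -0.67 to 0.66).

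Socs3 encodes the feedback inhibitor of gp130 and JAK signalling (ENSMUSG00000053113, chromosome 11, 117966079 to 117970047, minus strand). It had 3.12, 11.3 and 1.78 FPKM in antagomir retinas and 7.88, 1.55 and 2.35 FPKM in control retinas. Antagomir replicate 2 was 4.62 times the mean of the other antagomir libraries, and control replicate 1 was 4.04 times the mean of the other controls. Cebpd, a transcription factor gene of the acute-phase response, had 7.196, 26.6 and 6.07 FPKM in antagomir retinas and 15.3, 4.71 and 6.39 FPKM in control retinas. Bcl3, which encodes a nuclear partner of the NF-kB subunits p50 and p52, had 42, 211 and 20 reads in antagomir retinas and 95, 7 and 33 reads in control retinas. Socs3, Cebpd, Bcl3 and A2m had exactly the same order of all 6 libraries, an order shown by 0.258% of all genes tested. From high to low it ran antagomir 2, control 1, antagomir 1, control 3, antagomir 3 and control 2. Any single order is rare: those found among the tested members were each shown by 0.0859% to 0.298% of all genes tested. The log2 fold changes were 0.30 (SE 0.65) for Socs3, 0.41 (SE 0.59) for Cebpd and 0.42 (SE 0.60) for Bcl3, with adjusted p from 0.928 to 0.954 by limma. Without antagomir replicate 2 they were -0.32, -0.21 and -0.17. The Socs3 promoter (chr11:117969317-117969616, minus strand) has its STAT core in capitals, 154 bases before the start site.
Socs3: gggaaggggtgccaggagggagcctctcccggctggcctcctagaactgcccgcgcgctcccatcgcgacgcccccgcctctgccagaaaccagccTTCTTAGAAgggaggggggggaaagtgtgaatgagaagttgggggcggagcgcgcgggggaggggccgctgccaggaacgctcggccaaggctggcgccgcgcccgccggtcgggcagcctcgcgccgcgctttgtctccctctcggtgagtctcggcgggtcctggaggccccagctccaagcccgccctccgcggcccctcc

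Of 26 further genes of gp130 cytokine signalling, 19 were tested and 0 were called at an adjusted p of 0.05, with 11 above 0 and 8 below. At an unadjusted p under 0.05 there were 0 in either direction, and the median log2 fold change was 0.040. Il6, the founding ligand of the family, was listed at 0 in every library. Osm, the ligand of Osmr, had 1 read over the antagomir libraries and 3 over the controls. Jak1, a kinase of the pathway, had 21.4, 20.4 and 20.03 FPKM in antagomir retinas and 22.6, 20.5 and 21.7 FPKM in control retinas. Ptpn11, a phosphatase that couples gp130 to the MAP kinases, had 20.4, 20.6 and 21.5 FPKM in antagomir retinas and 21.6, 22.3 and 21.4 FPKM in control retinas. Both were nearly level across the libraries. Il6st, the gp130 gene itself, was named after its values were seen and had 8.15, 10.6 and 8.89 FPKM in antagomir retinas and 11.03, 9.06 and 8.96 FPKM in control retinas. It was highest in control replicate 1 and then antagomir replicate 2, over a narrow range. Junb, an AP-1 subunit gene induced by STAT3 among others, had 12.8, 22.5 and 22.4 FPKM in antagomir retinas and 18.5, 8.21 and 14.8 FPKM in control retinas. Antagomir replicate 2 held the highest level of 5 of the 19, and control replicate 1 was the highest control in 12.

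**Figure D4:**
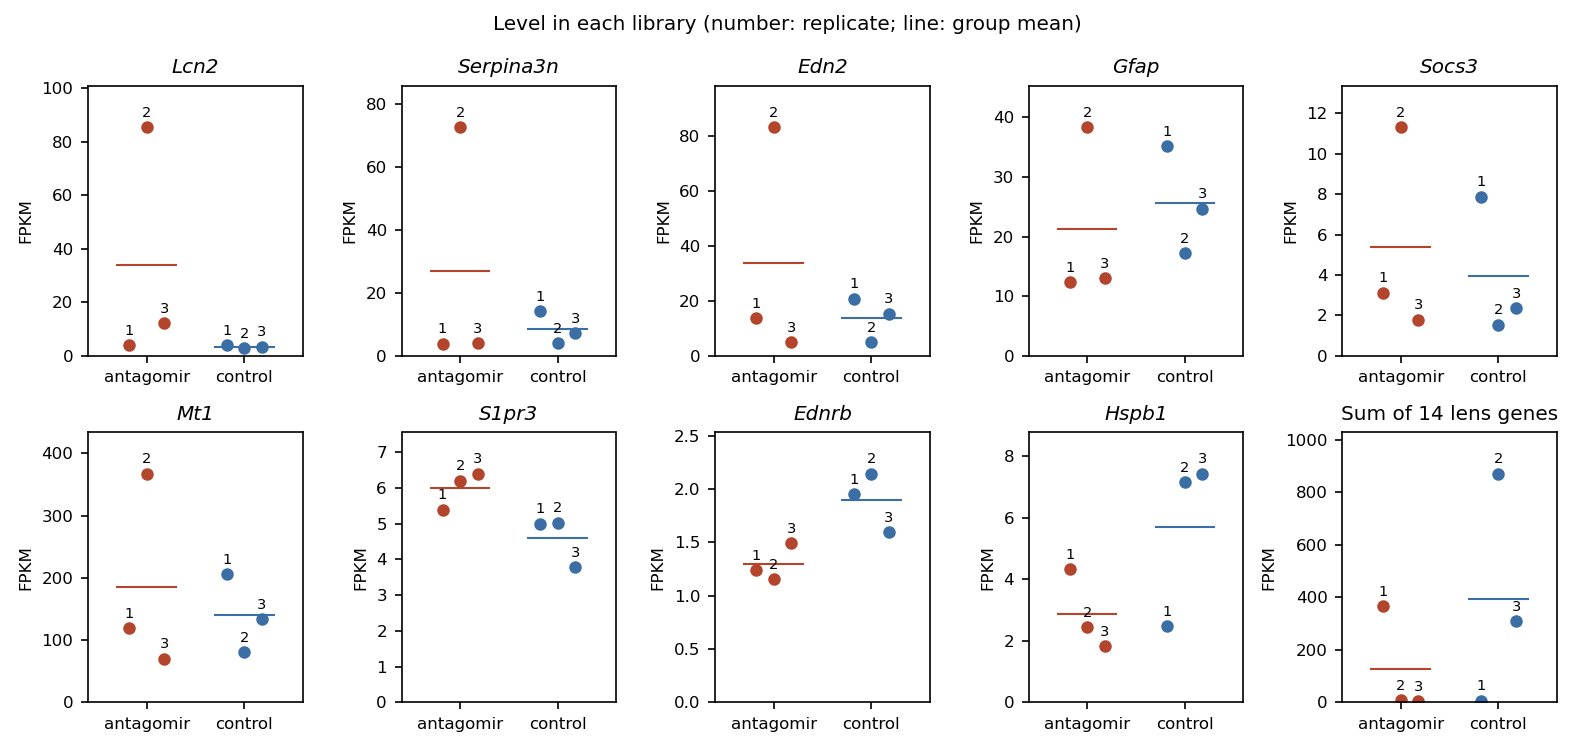
FPKM (y axes, each from 0) of 9 members and the sum of 14 lens genes in each library. Points carry their replicate number, antagomir libraries are left of control libraries in each panel, and lines are group means. Lcn2, Serpina3n, Edn2, Socs3 and Mt1 share a high antagomir 2, S1pr3 and Ednrb do not overlap between groups, and Hspb1 is highest in control 2 and control 3. The lens sum is high in those libraries and in antagomir 1, where Hspb1 is lower.

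Among the endothelin and fibroblast growth factor members, the ligand genes Edn2 and Fgf2 were highest in antagomir replicate 2, and the receptor gene Ednrb was lowest there. Edn2, the endothelin that stressed photoreceptors secrete and that acts on Müller glia (ENSMUSG00000028635, chromosome 4, 120161206 to 120167360, plus strand), had 13.7, 83.1 and 4.89 FPKM in antagomir retinas. In control retinas it had 20.7, 5.09 and 15.3 FPKM. Antagomir libraries held both the highest and the lowest level of the 6 (log2 fold change 0.59, SE 0.96, 95% interval -1.71 to 2.88, and -0.47 without antagomir replicate 2). Fgf2, a photoreceptor survival factor, had 16.98, 33.0 and 8.65 FPKM in antagomir retinas and 15.9, 6.39 and 10.99 FPKM in control retinas. The ranges overlapped (log2 fold change 0.66, SE 0.48, and 0.20 without antagomir replicate 2). Fgf2os, which overlaps Fgf2 on the opposite strand, had 10.2, 27.5 and 6.98 FPKM in antagomir retinas. In control retinas Fgf2os had 7.69, 4.66 and 7.28 FPKM. How reads were assigned to strands is not given, so the levels of Fgf2 and Fgf2os may not be separate. Ednrb, the endothelin receptor of Müller glia and astrocytes (ENSMUSG00000022122, chromosome 14, 103814625 to 103844402, minus strand), had 1.24, 1.15 and 1.49 FPKM in antagomir retinas. In control retinas it had 1.95, 2.14 and 1.59 FPKM. Every antagomir library was below every control library (log2 fold change -0.33, SE 0.12, 95% interval -0.62 to -0.05), without passing the adjusted test (adjusted p = 0.801 by limma). Among the antagomir libraries Ednrb was lowest in replicate 2, where Edn2 was highest, but only just below replicate 1 (80 and 77 reads). Among the controls Ednrb was highest in replicate 2, where Edn2 was lowest. Edn2 was highest in control replicate 1, whereas Ednrb was lowest in control replicate 3.

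Of 15 further endothelin and FGF genes, 11 were tested, 0 were called, and 7 were above 0 and 4 below. Fgf1, the acidic fibroblast growth factor gene, was the only one of the 11 with an unadjusted p under 0.05 by limma. Of all genes tested, 6.2% had such a p and 12% did not overlap between the groups. Fgf1 had 6.89, 5.34 and 6.69 FPKM in antagomir retinas and 7.10, 9.57 and 11.1 FPKM in control retinas, without overlap (log2 fold change -0.47, SE 0.16, adjusted p = 0.801 by limma). Spry2, a feedback inhibitor of FGF signalling, had 33.4, 33.1 and 43.0 FPKM in antagomir retinas and 34.3, 32.9 and 35.3 FPKM in control retinas. Etv5, a transcription factor gene that FGF receptors induce, had 11.5, 12.5 and 11.1 FPKM in antagomir retinas and 11.2, 13.4 and 11.4 FPKM in control retinas. Ece1, the endothelin-converting enzyme gene, had 7.76, 7.79 and 9.29 FPKM in antagomir retinas and 6.81, 9.68 and 8.31 FPKM in control retinas. None of these 4 genes was highest in antagomir replicate 2, where Edn2 was.

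Metallothioneins are small proteins that buffer zinc and copper, and Mt1 was the most abundant member (ENSMUSG00000031765, chromosome 8, 94179082 to 94180327, plus strand). It had 119, 367 and 69.9 FPKM in antagomir retinas and 206, 81.1 and 133 FPKM in control retinas. The order of its 6 libraries was that of Edn2, an order held by 0.258% of all genes tested, a share that is small for any single order. The log2 fold change of Mt1 was 0.15 (SE 0.62, 95% interval -1.31 to 1.62), and -0.51 without antagomir replicate 2. Mt2, its neighbour, had only 3, 14 and 0 reads in antagomir retinas and 2, 4 and 2 reads in control retinas. The Mt1 stretch (chr8:94178839-94179138, plus strand) shows 3 matches to TGCNCNC, the core of the metal response element, in capitals. These letters are common: they occurred on either strand in 17 of the 28 members and in 64.9% of the tested genes with a promoter.
Mt1: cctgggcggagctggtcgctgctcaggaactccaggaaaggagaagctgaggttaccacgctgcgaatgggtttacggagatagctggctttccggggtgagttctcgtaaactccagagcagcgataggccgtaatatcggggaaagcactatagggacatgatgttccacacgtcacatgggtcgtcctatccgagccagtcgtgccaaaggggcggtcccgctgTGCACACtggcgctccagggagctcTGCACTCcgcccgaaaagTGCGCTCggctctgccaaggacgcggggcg
Of 15 genes of metallothionein, zinc and iron handling, 14 were tested and 0 were called, with 8 above 0 and 6 below. The ferritin heavy chain gene Fth1 had 525, 562 and 497 FPKM in antagomir retinas and 512, 486 and 517 FPKM in control retinas. The light chain gene Ftl1 had 61.8, 63.4 and 62.6 FPKM in antagomir retinas and 55.9, 64.3 and 60.8 FPKM in control retinas. The transferrin receptor gene Tfrc had 30.01, 31.9 and 35.6 FPKM in antagomir retinas and 39.6, 28.6 and 34.7 FPKM in control retinas. The ferritin genes thus stayed within a narrow band in all libraries, while Tfrc ran from 28.6 to 39.6 FPKM. Antagomir replicate 2 was the highest library for 6 of the 14 tested genes, Fth1 and Trf among them. Trf, the transferrin gene, was named after its values were seen and ran from 2.18 to 6.37 FPKM. Hmox1, the haem-degrading enzyme gene, had 5.54, 3.51 and 5.82 FPKM in antagomir retinas and 13.8, 6.24 and 10.4 FPKM in control retinas, without overlap (log2 fold change -0.87, SE 0.28, adjusted p = 0.801 by limma). Of the 5 red cell markers tested, all 5 had a log2 fold change below 0, and the globin gene Hbb-bs had 16.1, 12.6 and 33.6 FPKM in antagomir retinas and 134, 45.2 and 48.5 FPKM in control retinas. The other globin genes tested, Hba-a1, Hba-a2 and Hbb-bt, overlapped between the groups. The part of red cell transcripts in the Hmox1 values was not tested.

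Hspb1, the small heat shock protein gene, had the lowest log2 fold change of the tested members. It had 4.34, 2.44 and 1.82 FPKM in antagomir retinas and 2.48, 7.15 and 7.43 FPKM in control retinas (log2 fold change -0.73, SE 0.39, adjusted p = 0.813 by limma). The 3 libraries in which Hspb1 was highest were those that held lens transcripts. The summed level of 14 lens genes was 367, 8.94 and 4.66 FPKM in antagomir retinas and 5.82, 870 and 308 FPKM in control retinas. Cryab, another small heat shock protein gene that lens also makes, had 42.6, 27.3 and 20.5 FPKM in antagomir retinas and 19.9, 97.9 and 37.5 FPKM in control retinas. The part of lens RNA in these values was not tested. With the mean lens level as a covariate the log2 fold change of Hspb1 was -0.36, and without control replicate 1 it was -1.15. Of 8 heat shock partner genes, 0 were called and 5 were above 0 and 3 below, with Hsp90aa1 at 387, 387 and 425 FPKM in antagomir retinas and 516, 367 and 438 FPKM in control retinas. Hspa8 had 148, 149 and 169 FPKM in antagomir retinas and 148, 159 and 155 FPKM in control retinas. Dnajb1 had 15.1, 15.3 and 14.8 FPKM in antagomir retinas and 18.1, 15.2 and 14.9 FPKM in control retinas. None of these 3 partner genes was highest in both control replicates 2 and 3.

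Among surface receptors and cytosolic proteins of reactive glia, S1pr3 and S100a6 did not overlap between the groups. S1pr3, a receptor for sphingosine 1-phosphate (ENSMUSG00000067586, chromosome 13, 51408639 to 51422797, plus strand), had 5.39, 6.20 and 6.398 FPKM in antagomir retinas and 4.999, 5.03 and 3.77 FPKM in control retinas. Every antagomir library was above every control, and antagomir replicate 2 was not the highest (log2 fold change 0.33, SE 0.12, 95% interval 0.05 to 0.60, adjusted p = 0.801 by limma). S100a6, the calcium-binding protein calcyclin (ENSMUSG00000001025, chromosome 3, 90612882 to 90624181, plus strand), had 9.86, 27.9 and 10.3 FPKM in antagomir retinas and 8.26, 6.02 and 7.19 FPKM in control retinas. The groups did not overlap, and outside antagomir replicate 2 the gap between them was small (log2 fold change 0.91, SE 0.37, and 0.45 without that library). Gbp2, an interferon-induced guanylate-binding protein gene, had 67, 121 and 43 reads in antagomir retinas and 39, 16 and 14 reads in control retinas. On the FPKM scale its antagomir replicate 3 and control replicate 1 were both at 1.04, and the groups overlapped at that value (log2 fold change 0.83, SE 0.27, adjusted p = 0.801 by limma).

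Cd44, the hyaluronan receptor, had 2.07, 4.54 and 1.98 FPKM in antagomir retinas and 2.48, 1.52 and 1.54 FPKM in control retinas. Tnfrsf12a, the receptor for the cytokine TWEAK, had 2.03, 5.18 and 3.04 FPKM in antagomir retinas and 5.70, 1.91 and 2.36 FPKM in control retinas. In both genes, antagomir replicate 2 and control replicate 1 were the 2 highest libraries. Lgals3 encodes galectin 3, a sugar-binding protein of macrophages and some glia. It had 2.41, 1.52 and 1.63 FPKM in antagomir retinas and 2.71, 1.88 and 1.63 FPKM in control retinas, and antagomir replicate 2 was its lowest library. Aspg, an asparaginase gene induced in reactive astrocytes, had 6, 23 and 8 reads in antagomir retinas and 4, 4 and 5 reads in control retinas. Its mean FPKM was below the filter, so it was not tested. The groups did not overlap, but antagomir replicate 1 and control replicate 3 had 6 and 5 reads.

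Of 29 other genes known from reactive astrocytes, 20 were tested and 0 were called, with 10 above 0 and 10 below and a median log2 fold change of 0.013. By unadjusted p, 2 of them lay under 0.05 with higher values in antagomir retinas and 1 with lower values, where 3.22% and 2.98% of all genes tested did so. H2-D1, a class I antigen-presenting gene, had 22.4, 33.5 and 23.8 FPKM in antagomir retinas and 21.9, 16.6 and 18.2 FPKM in control retinas. Psmb8, an immunoproteasome subunit gene, had 31, 95 and 48 reads in antagomir retinas and 18, 18 and 23 reads in control retinas, and passed the expression filter only through the antagomir libraries. Neither gene overlapped between the groups (log2 fold changes 0.46, SE 0.17, and 0.60, SE 0.22), and the lower gene, Tm4sf1, was named after its values were seen (log2 fold change -0.40, SE 0.16). Amigo2, a neural adhesion gene, had 23.3, 22.96 and 20.03 FPKM in antagomir retinas and 23.2, 23.4 and 22.3 FPKM in control retinas. Antagomir replicate 2 was the highest library for 10 of these 20 genes.

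Markers of the cells that could carry these transcripts were set beside the members, since in bulk retina fewer cells of a type and less RNA per cell cannot be told apart. All 12 Müller glia markers were detected, with a summed level of 1331, 1282 and 1153 FPKM in antagomir retinas and 1196, 1444 and 1154 FPKM in control retinas. Antagomir replicate 2 and control replicate 1 lay inside that range. The glutamine synthetase gene Glul had 444, 392 and 414 FPKM in antagomir retinas and 419, 547 and 436 FPKM in control retinas. The 7 astrocyte markers summed to 49.7, 46.1 and 41.7 FPKM in antagomir retinas and 46.6, 44.8 and 49.6 FPKM in control retinas. These sums rest on a few abundant genes. Of the single markers tested, antagomir replicate 2 was highest for 3 of 12 Müller glia markers (Clu, Aqp4 and Sox9) and for 1 of 6 astrocyte markers (Slc1a2). Sox9, Clu and Rlbp1 were named after their values were seen. Sox9, a transcription factor gene of Müller glia, had 4.66, 6.405 and 5.18 FPKM in antagomir retinas and 5.20, 4.49 and 4.23 FPKM in control retinas. Clu, the clusterin gene, had 108, 169 and 87.3 FPKM in antagomir retinas and 112, 117 and 108 FPKM in control retinas. Other Müller glia markers, Glul, Rlbp1, Car14 and Dio2, were lowest of all libraries in antagomir replicate 2. Rlbp1 had 105, 73.5 and 105 FPKM in antagomir retinas and 114, 126 and 99.5 FPKM in control retinas. The part of glial cell numbers in the member levels was not tested. The 12 microglia and macrophage markers summed to 51.5, 114 and 88.8 FPKM in antagomir retinas and 60.2, 49.6 and 57.2 FPKM in control retinas, highest in the library in which most members were highest. Lyz2, the lysozyme gene of myeloid cells, had 5.59, 15.2 and 17.4 FPKM in antagomir retinas and 4.44, 4.35 and 5.05 FPKM in control retinas. Control replicate 1, second for many members, had the highest sum of the controls, at 60.2 FPKM. The 10 neutrophil markers summed to 3.24, 4.44 and 2.43 FPKM in antagomir retinas and 1.58, 1.71 and 2.47 FPKM in control retinas. Of these, Elane was at 0 in all libraries and only 3 passed the expression filter, S100a9 through the antagomir libraries alone. S100a9 had 7, 9 and 7 reads in antagomir retinas and 1, 0 and 1 reads in control retinas. Camp, an antimicrobial peptide gene, had 7, 7 and 3 reads in antagomir retinas and 5, 10 and 10 reads in control retinas. Csf3r, the receptor gene for granulocyte colony-stimulating factor, had 37, 93 and 60 reads in antagomir retinas and 33, 42 and 52 reads in control retinas. These 3 genes did not share a direction or an order of libraries. The part of myeloid cells in the member levels was not tested. Endothelial markers (8 genes) summed to 22.2, 27.9 and 42.3 FPKM in antagomir retinas and 22.5, 47.0 and 20.1 FPKM in control retinas, and were not highest in antagomir replicate 2.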

How the data were processed

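Per the labels' protocols, retinal RNA was taken with TRNzol and sequenced from SMARTER mRNA-Seq libraries. The authors deposited FPKM values with the length and position of each gene, per the file headers. The submitters' processing notes name GRCm38 and mm10. How reads were aligned, counted and assigned to strands is not given in the sources used here. So 13 members that overlap a gene on the opposite strand are uncertain, among them Fgf2 (Nudt6 and Fgf2os) and Stat3 (Stat5a). Members with close paralogs (Serpina3n, Saa3, Gbp2, Mt1 and Mt2) are uncertain too. Multiplied by gene length, 100% of the FPKM values came out as whole reads within 0.01 reads, and these rebuilt reads are the read numbers printed. No 2 libraries held the same counts within sampling noise (chi-square over its degrees of freedom, 4.45 to 13.5).

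Genes with a mean of at least 0.5 FPKM were tested with limma 3.58.1 (R 4.3.3, eBayes, trend on) on log2(FPKM + 1), two-sided, with no covariate and Benjamini-Hochberg adjustment over the 17453 genes tested at 0.05. On this scale the fold change of a low gene is smaller than its FPKM ratio. The fit was tested on simulated data. The members, the lists, the naming rule (all 30 members, and of each list the 3 genes with the highest mean FPKM and those without overlap at an unadjusted p under 0.05) and the settings were chosen with earlier results of these data known. Of the genes that this rule names, those of the cell type lists are mostly not printed. Motifs, on both strands, were the STAT core TTCNNNGAA, the AP-1 site TGANTCA, the metal response core TGCNCNC, the C/EBP core TTGCNNAA, the NF-kB site GGGNNTTCC and the hypoxia core ACGTG. The NF-kB site occurred in 6 of the 28 members (Gfap, Vim, Steap4, Bcl3, Ptx3 and Ednrb), against 8.40% of the tested genes with a promoter. The AP-1 site occurred in 5 members, against 5.87%, and the hypoxia core in 5 members, against 28.4%. Among the members, overlapping matches of different motifs occurred only in Cd44. All 30 members had identical coordinates in GENCODE M21. Replicate numbers did not pair the libraries. Alternatives were a pseudocount of 0.1, no filter, a minimum of 2 FPKM, quantile normalization, rescaling to TPM, voom on rebuilt reads, a replicate block, the lens level as a covariate, and each library left out in turn. An alternative chosen after seeing the data left out antagomir replicate 2 together with control replicate 1.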

Additional observations from a re-analysis of the deposited data

How the results depend on the processing

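No member was called under any of the settings. The number of genes called over the whole table was 28 with no filter on low values, 1 with voom on rebuilt reads, and from 0 to 2 when leaving out 1 library. The number of members at an unadjusted p under 0.05 was 4 with all libraries. It was 2 with a minimum of 2 FPKM (19 members tested), 2 with the replicate block, 1 with the lens level as a covariate, and from 1 to 5 when leaving out 1 library. Members above 0 numbered 8 to 24 when leaving out 1 library, the lowest without antagomir replicate 2, and 16 of 25 without both that library and control replicate 1. The median member log2 fold change ran from -0.13 (without antagomir replicate 2) to 0.67 (without antagomir replicate 3) over the same settings. It was 0.093 without control replicate 2, 0.096 with the lens covariate and 0.16 without both libraries. Replicate numbers did not pair the libraries, with correlations of -0.19, -0.10 and -0.14 between the deviations of same-numbered libraries.

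With the lens covariate the log2 fold change turned to -0.049 for Serpina3n, -0.090 for Socs3, -0.10 for Osmr, -0.11 for Mt1 and -0.27 for Tnfrsf12a, and voom gave 0.0040 for Stat3. Without both libraries it was -0.030 for Cp, -0.097 for Edn2, -0.19 for Mt1, -0.38 for Serpina3n, 0.12 for Lgals3 and 0.16 for Nes. Leaving out 1 library turned the sign of the log2 fold change of 14 members, whose values then ran from -0.20 to 0.15 for Vim, from -0.20 to 0.21 for Nes, from -0.79 to 1.16 for Serpina3n, from -0.47 to 1.45 for Edn2, from -0.51 to 0.67 for Mt1, from -0.11 to 0.52 for Cp, from -0.011 to 1.14 for Timp1. They ran from -0.13 to 0.38 for Osmr, from -0.28 to 0.21 for Stat3, from -0.32 to 0.83 for Socs3, from -0.21 to 0.85 for Cebpd, from -0.17 to 0.86 for Bcl3, from -0.20 to 0.44 for Tnfrsf12a and from -0.24 to 0.038 for Lgals3. The cause was not tested.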

Other observations

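Over the whole table, genes with a mean of at least 1 FPKM were ranked by the level in antagomir replicate 2 over the next highest library. That mean includes antagomir replicate 2, and some genes, among them Steap4, Cd72 and Fcgr4, reached it only through that library. Saa3, with a mean of 0.87 FPKM, was not ranked. The ranking is therefore a description. Of the first 25 genes, 7 were members (Lcn2, Serpina3n, Edn2, Timp1, Steap4, S100a6 and A2m). Of the others, which include small RNA and unnamed genes, 4 are given here, chosen after their values were seen. Cd72 had 0.382, 4.65 and 0.337 FPKM in antagomir retinas and 0.511, 0.442 and 0.232 FPKM in control retinas. Fcgr4, an antibody receptor gene of myeloid cells, had 0.383, 5.28 and 0.579 FPKM in antagomir retinas and 0.589, 0.210 and 0.288 FPKM in control retinas. C4b, a complement component, had 3.03, 16.2 and 3.30 FPKM in antagomir retinas and 3.47, 2.93 and 2.77 FPKM in control retinas. Serping1, the inhibitor of the first complement component, had 7.01, 22.5 and 5.06 FPKM in antagomir retinas and 5.52, 3.82 and 4.76 FPKM in control retinas.

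Mt1 and Mt2 lie next to each other on chromosome 8. Mt1 had 11042 reads over the antagomir libraries and 7658 over the controls, while Mt2 had 17 and 8. Gm45774 overlaps Mt2 on the opposite strand, and Mt2 is a close paralog of Mt1. How reads were assigned to strands and between paralogs is not given, so the level of Mt2 transcripts in the retina is uncertain.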
